A study of Homo sapiens with 4 samples.

Results

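The genes described here are FZD7, TCF7L2, MYC, TRAF6, ARHGEF2, ATG14, ATG2A and USP14, whose mRNAs have been described in other cells and tissues as being translated through YTHDF1. They were taken by gene symbol from the deposited count table, in which each symbol occurred once. They are 8 of the 46427 genes listed, and all 8 passed the filter on low counts that left 17781 genes for testing. The RNA came from the human cell line SNU638, established from a gastric cancer, with 2 biological replicates that received a control vector and 2 that received a vector for YTHDF1 overexpression. According to the labels, the cells of all 4 samples were first held in medium free of serum for 24 h and then received IFN‐γ (the cytokine interferon gamma) at 10 ng/ml for 8 h, while a figure legend of the study gives a longer exposure. The comparison is therefore between vectors under IFN‐γ, and it holds no untreated cells. Whether the cells were pools or single clones is not given in the sources used here. The labels call the libraries biological replicates without saying that they came from separate cultures, so the p-values measure only the spread between these samples.

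N6‐methyladenosine (m6A) is a methyl mark on adenosines within mRNA, and YTHDF1 is a cytoplasmic protein that binds it. YTHDF1 has been described both as raising the translation of marked mRNAs and, with its relatives YTHDF2 and YTHDF3, as speeding their decay. Work cited by the study proposes that YTHDF1 may also raise the stability of certain mRNAs, MYC and HK2 among them. A change in translation alone leaves the amount of mRNA where it was, whereas a change in decay alters it, and a count table of mRNA reads speaks only to the amount. The 8 genes act in several pathways. FZD7 is a receptor for Wnt ligands, TCF7L2 is a transcription factor through which β‐catenin acts on DNA, and MYC is a transcription factor of growth and a known Wnt target. TRAF6 is a ubiquitin ligase that passes signals from Toll‐like and interleukin‐1 receptors to NF‐κB. ARHGEF2 (GEF‐H1) is a guanine nucleotide exchange factor that is held inactive on microtubules. ATG14 directs the lipid kinase complex that starts an autophagosome, ATG2A moves lipids into the growing membrane, and USP14 removes ubiquitin from proteins at the proteasome.

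The m6A mark is most often placed on a short consensus, of which GGACT in DNA letters is the classical form. To show where such letters stand in these mRNAs, 1 transcript per gene was taken from GENCODE release 29 on GRCh38, the build named in the submitters' processing notes, and the sense strand was searched for GGACT. The letters occurred 5 times in ATG14 and ATG2A, 4 times in ARHGEF2 and MYC, 3 times in TCF7L2, 2 times in USP14, once in FZD7 and 0 times in TRAF6. Of 13896 tested genes with such a transcript, 91.2% held at least 1 GGACT, with a median of 0.952 per kb. Per kb the members ran from 0 in TRAF6 and 0.259 in FZD7 to 1.69 in MYC. The related forms GGACA, then GGACC, and lastly AGACT, which can share an end base with another match, were also counted on the sense strand. With GGACT included, TRAF6 held 6 of the 4 forms and had 1.30 per kb, against a median of 4.40 per kb over the same transcripts and 7.08 per kb in ATG2A. For 6 genes the GGACT nearest to the stop codon, among those whose window lay in 1 exon, is shown in its 25 bases of mRNA, 5′ to 3′, with the motif in capitals. A match marks letters and not a measured methylation, since m6A was not measured in these libraries.
FZD7: ggctgaacggGGACTgtgagcgatc
TCF7L2: cttaggacccGGACTgaccgtgtac
ARHGEF2: ctaaccttggGGACTccaatttgcc
ATG14: ctaacaatggGGACTactctgccta
ATG2A: tcttcctcaaGGACTtcttcactag
USP14: agccttgtatGGACTatattagaat

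The windows of ATG14 and ATG2A lie in coding sequence and the other 4 in the 3′ untranslated region. FZD7 has a single exon, and its window is at chr2:202036708-202036732 on the plus strand, 348 bases after the start of the stop codon. In TCF7L2 it is at chr10:113167035-113167059 on the plus strand, in the last of 14 exons. In ARHGEF2 it is at chr1:155947865-155947889 on the minus strand, in the last of 22 exons and 65 bases after the start of the stop codon, the closest of the 6. The ATG14 window is at chr14:55382003-55382027 on the minus strand, in exon 6 of 10, and the ATG2A window at chr11:64898136-64898160 on the minus strand, in exon 34 of 41. The USP14 window is at chr18:213298-213322 on the plus strand, in the last of 16 exons and 2026 bases after the start of the stop codon. TRAF6 lies at chr11:36487027-36510272 on the minus strand and has 7 exons, and MYC is on chromosome 8 with 3 exons. In the GENCODE annotation TCF7L2 and ARHGEF2 share 300 and 124 exonic bases with antisense RNA genes on the opposite strand, and USP14 shares 110 with the neighbouring THOC1 gene on the opposite strand. The kit was stranded but the strand setting of the authors' counting is not given in the sources used here, so reads of these short stretches could belong to either gene.

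The libraries held 57398137 to 60864942 counts each, and the 8 genes had between 572 and 16193 counts in every library. Counting error was not small beside the differences read below. Within replicate 2 its 95% interval excluded 0 for 0 of the 8 genes. YTHDF1 itself had 82.2 and 80.3 CPM (counts per 1000000 of library size, scaled by TMM) in control replicates 1 and 2 and 16494.5 and 2628 CPM in YTHDF1 replicates 1 and 2. It was thus 200.6-fold higher within replicate 1 and 32.7-fold higher within replicate 2. In the fit over all tested genes YTHDF1 had a log2 fold change of 6.88 (standard error 1.20, adjusted p = 1.00). That fit has no term for the replicate number and gave no gene an adjusted p under 0.05, not even YTHDF1. Its adjusted p therefore cannot tell a changed gene from an unchanged one here. With the replicate number as a block, edgeR's quasi-likelihood test gave YTHDF1 6.34 and an adjusted p of 0.00223. Libraries that shared a replicate number were more alike than those that shared a vector. Pearson's r of log2 CPM, taken across genes and so not over independent replicates, was 0.985 and 0.983 within the numbers and 0.886 and 0.888 within the vectors. All 7 epithelial markers were detected in every library, with 4021 to 6804 CPM in sum, and the 5 markers of IFN‐γ treatment had 3762 to 5222 CPM. Immune and endothelial markers summed to at most 1.04 CPM and fibroblast markers to at most 11.2 CPM, most of it COL1A1. In bulk RNA, fewer cells of a type and less RNA per cell cannot be told apart.

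The first question was whether the mRNA of these genes moved with YTHDF1. In the fit without a term for the replicate number, none of the 8 differed between the vectors beyond the spread between replicates. That spread holds the difference between the replicate numbers. With the replicate number as a block, TCF7L2 alone had an unadjusted p under 0.05 by edgeR (log2 fold change 0.11, adjusted p = 0.999). Within each replicate number every gene stayed within 0.25 on the log2 scale, a limit chosen after the values were seen. Of all tested genes 66.9% also kept it. The largest difference was that of TCF7L2 within replicate 1, at 11.2% more mRNA with YTHDF1. Only USP14 was higher in both YTHDF1 libraries than in both control libraries, as were 5.67% of all tested genes, and 0 of the 8 were lower in both, against 5.83%. TCF7L2, MYC and USP14 were higher with YTHDF1 within both replicate numbers, 3 of 8 against 25.9% of all tested genes. ATG14 was lower within both, 1 of 8 against 24.5%. The direction was thus the same both times in 4 of 8, against 50.4%. The other 4 genes, FZD7, TRAF6, ARHGEF2 and ATG2A, differed in opposite directions within the 2 numbers. The share with the same direction both times is close to that of all genes, and 8 genes are too few to judge the other shares.

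**Figure D1:**
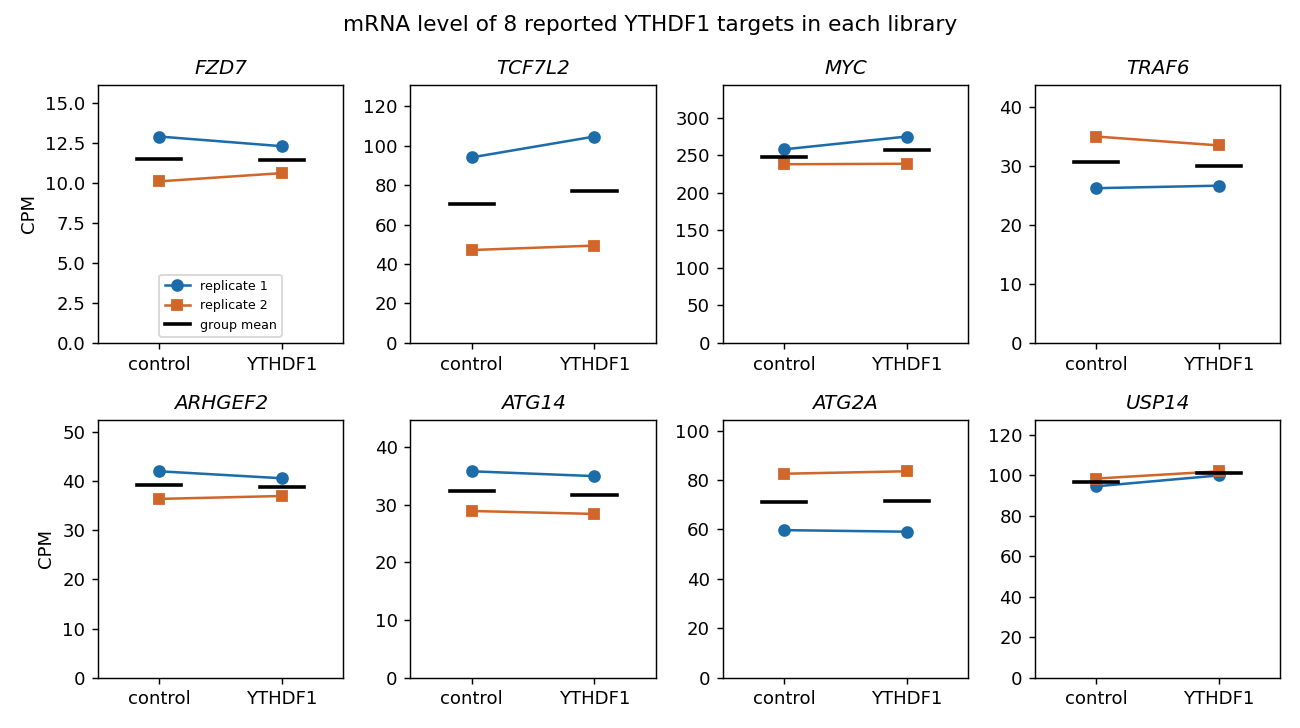
mRNA level in CPM (y axes, each starting at 0) of the 8 genes in the control and YTHDF1 libraries (x axes), with circles for replicate 1, squares for replicate 2, lines joining libraries of a number and black bars for the mean of a vector. The lines run nearly flat in every panel, while circles and squares are far apart for TCF7L2, TRAF6 and ATG2A and meet for USP14.

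Among the Wnt genes, the receptor FZD7 was the least expressed of the 8. FZD7 had 12.9 and 10.1 CPM in control replicates 1 and 2 and 12.3 and 10.6 CPM in YTHDF1 replicates 1 and 2. Both YTHDF1 libraries lay between the control libraries, so the vectors overlapped entirely. The intervals given here and for the genes below are from the fit without a term for the replicate number. They therefore hold the gap between the numbers. Those with the replicate number as a block lay between −0.21 and 0.23 for all 8 genes. The log2 fold change was −0.0057 (standard error 0.23, 95% interval −0.66 to 0.65, adjusted p = 1.00 by edgeR), being −0.069 within replicate 1 and 0.072 within replicate 2.

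TCF7L2, which carries the Wnt signal to DNA, showed the widest spread. It had 94.1 and 47.1 CPM in the control replicates and 104.6 and 49.3 CPM in the YTHDF1 replicates. Both libraries numbered 1 had about as much again as those numbered 2, whichever the vector. Between the vectors the log2 fold change was 0.13 (standard error 0.55, 95% interval −1.45 to 1.70, adjusted p = 1.00). It was 0.15 within replicate 1 (95% interval for counting error alone 0.10 to 0.21) and 0.067 within replicate 2 (−0.0086 to 0.14). In edgeR's fit with the replicate number as a block it was 0.11 (standard error 0.050, 95% interval 0.0014 to 0.23, adjusted p = 0.999).

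MYC was the most abundant of the 8, with 257.9 and 238.1 CPM in control replicates 1 and 2 and 275.0 and 238.8 CPM in YTHDF1 replicates 1 and 2. YTHDF1 replicate 1 was the highest library, and YTHDF1 replicate 2 was level with control replicate 2. The log2 fold change was 0.051 (standard error 0.12, 95% interval −0.29 to 0.39, adjusted p = 1.00). The difference was 0.093 within replicate 1, or 6.63% more mRNA, and 0.0042 within replicate 2.

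TRAF6, the NF‐κB pathway ligase, had 26.2 and 35.0 CPM in the control replicates and 26.7 and 33.5 CPM in the YTHDF1 replicates. The replicates numbered 2 were the high ones for both vectors. The log2 fold change was −0.026 (standard error 0.22, 95% interval −0.66 to 0.61, adjusted p = 1.00), with 0.023 within replicate 1 and −0.064 within replicate 2. The exchange factor ARHGEF2 had 42.0 and 36.4 CPM with the control vector and 40.6 and 37.0 CPM with YTHDF1. As for FZD7, the YTHDF1 libraries fell between those of the control. Its log2 fold change was −0.015 (standard error 0.13, 95% interval −0.38 to 0.35, adjusted p = 1.00), and the differences were −0.050 and 0.023 within replicates 1 and 2.

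The autophagy genes were the steadiest of the 8 within a replicate number. ATG14, the subunit that places the lipid kinase at the forming membrane, had 35.8 and 28.9 CPM in the control replicates and 35.0 and 28.4 CPM in the YTHDF1 replicates. It was slightly lower with YTHDF1 both times, at −0.034 and −0.026, and its log2 fold change was −0.030 (standard error 0.19, 95% interval −0.57 to 0.51, adjusted p = 1.00). ATG2A, the lipid transfer protein, had 59.7 and 82.6 CPM in the control replicates and 59.1 and 83.6 CPM in the YTHDF1 replicates. Each pair of a number was within 1.20% of equality, with −0.015 within replicate 1 and 0.017 within replicate 2 on the log2 scale. Its log2 fold change between the vectors was 0.0038 (standard error 0.26, 95% interval −0.76 to 0.76, adjusted p = 1.00).

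USP14, the deubiquitinase of the proteasome, had 94.4 and 98.3 CPM in control replicates 1 and 2 and 99.8 and 101.9 CPM in YTHDF1 replicates 1 and 2. The vectors did not overlap, although the gap between the highest control and the lowest YTHDF1 library was smaller than the gap between the control replicates. USP14 also had the narrowest interval of the 8, with a log2 fold change of 0.066 (standard error 0.076, 95% interval −0.15 to 0.29, adjusted p = 1.00). It was 0.080 within replicate 1, or 5.70% more mRNA, and 0.052 within replicate 2, or 3.67% more.

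**Figure D2:**
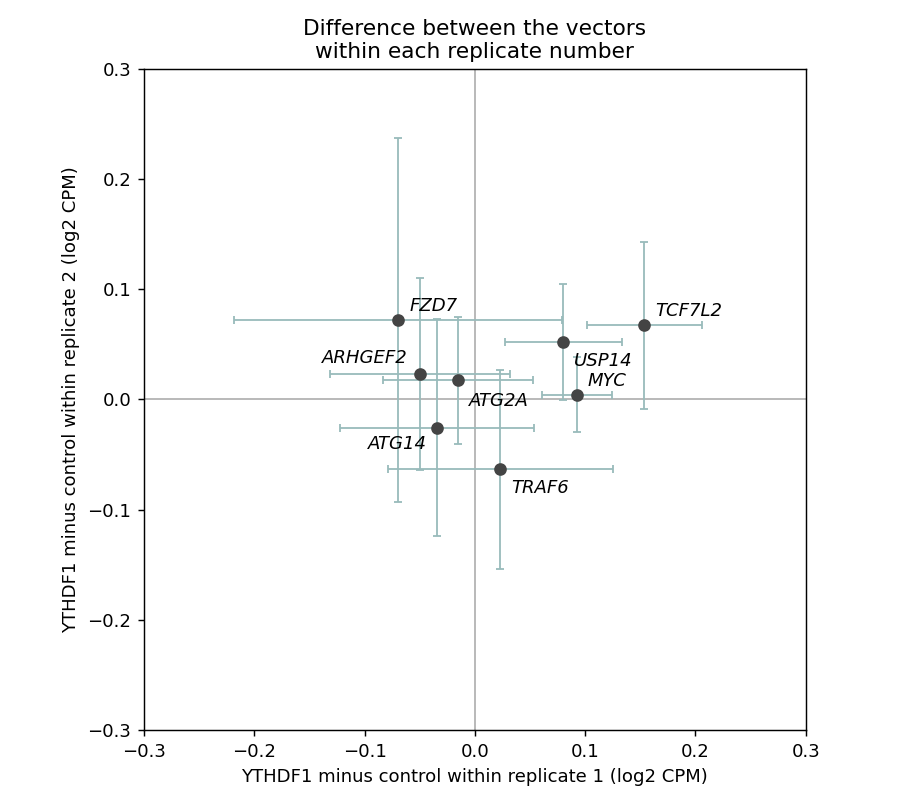
Difference in log2 CPM between the YTHDF1 and the control library of replicate number 1 (x axis) and of number 2 (y axis) for each of the 8 genes, with bars for the 95% exact binomial interval of counting error alone. TCF7L2, USP14 and MYC stand to the right of 0 with bars that clear it on the x axis, and every bar on the y axis reaches 0.

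By the threshold of the study, which asks for 0.5 or more on the log2 scale in either direction together with an unadjusted p below 0.05 (here from edgeR), 0 of the 8 genes were higher and 0 were lower, against 0.0225% and 0.0787% of all tested genes. At an unadjusted p under 0.05 with no fold asked for the count was again 0, against 0.135%, and at an adjusted p under 0.05 it was 0 against 0% of all tested genes. DESeq2's Wald test and limma-voom, also without a term for the replicate number, gave 0 of 8 at an unadjusted p under 0.05 as well. Such fits called few genes of any kind, so a count of 0 among 8 says little. By the threshold of the study DESeq2 had 3 of 17781 genes higher and 11 lower, and limma-voom 3 and 12. With the replicate number as a block, edgeR gave 1 of 8, TCF7L2, against 3.79% of all tested genes. By the threshold of the study the block gave 0 of 8, where 58 of 17781 genes were higher and 134 lower. The median log2 fold change of the 8 was −0.00095 and that of all tested genes 0.0046, and in size the medians were 0.028 and 0.069. Among the 9770 genes with at least 500 counts in every library, a depth that all 8 reach and that was chosen after seeing their counts, the median size was 0.040. The 95% counting interval excluded 0 within replicate 1 for TCF7L2, MYC and USP14, 3 of 8 against 34.3% of all tested genes, and within replicate 2 for 0 of 8 against 24.3%. These intervals hold counting error only, and PCR copies of a molecule were not told apart. With any 1 library left out the replicate numbers were unbalanced. The sign then turned in at least 1 case for every gene except USP14, which ran from 0.038 to 0.094. The intervals without a term for the replicate number were wide. Those of FZD7, TCF7L2, TRAF6, ATG14 and ATG2A did not exclude a log2 change of 0.5 in either direction. With the replicate number as a block the intervals of all 8 lay between −0.21 and 0.23, though the labels give the numbers no shared source.

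Because the vector raised YTHDF1 by 7.65 on the log2 scale within replicate 1 and by 5.03 within replicate 2, the differences were also set beside the amount of YTHDF1. The difference was larger in size within replicate 1 for TCF7L2, MYC, ARHGEF2, ATG14 and USP14, 5 of 8 against 55.8% of all tested genes. TCF7L2 had 0.15 and 0.067, MYC 0.093 and 0.0042, and USP14 0.080 and 0.052 in this order. FZD7, TRAF6 and ATG2A had the larger size within replicate 2. A dose relation was not tested, and other differences between the numbers cannot be told apart from the amount of YTHDF1.

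The second comparison set the libraries numbered 2 against those numbered 1, to show how far these mRNAs differed between these replicate numbers alone. Each number has 1 library per vector, and this test takes those as its replicates. Its p-values therefore do not measure how the cell line varies between replicates in general. Apart from USP14, these mRNAs moved more between the numbers than with YTHDF1. In edgeR's quasi-likelihood test of the replicate number, with the vector in the model, 7 of the 8 genes had an adjusted p under 0.05, as did 51.8% of all tested genes. TRAF6 and ATG2A were higher in number 2, a direction taken by 23.0% of all tested genes, and FZD7, TCF7L2, MYC, ARHGEF2 and ATG14 were lower, as were 28.7%. In these 7 genes the difference between the numbers was also larger in size than that between the vectors, which held for 83.5% of all tested genes.

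TCF7L2 fell most, by 1.04 on the log2 scale (standard error 0.050, adjusted p = 1.51e-07), which was −0.998 between the control libraries and −1.08 between the YTHDF1 libraries. ATG2A rose by 0.48 (standard error 0.048, adjusted p = 2.41e-05), with 0.47 between the control libraries and 0.50 between the YTHDF1 libraries. TRAF6 rose by 0.37 (standard error 0.064, adjusted p = 8.99e-04). ATG14, which works upstream of ATG2A in autophagy, went the other way and fell by 0.30 (standard error 0.061, adjusted p = 0.00238). FZD7 fell by 0.28 (adjusted p = 0.0282), ARHGEF2 by 0.17 (adjusted p = 0.0338) and MYC by 0.16 (adjusted p = 0.0129). USP14 was the exception, at 0.043 (standard error 0.045, 95% interval −0.059 to 0.15, adjusted p = 0.459).

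With 1 library left out and the replicate number alone in the model, TCF7L2, ATG2A, TRAF6 and ATG14 passed each time. The count of genes passing was 5 without control replicate 1, 4 without control replicate 2, 7 without YTHDF1 replicate 1 and 4 without YTHDF1 replicate 2. The labels give the numbers no meaning beyond that of a replicate. Other gene groups moved with them too. The summed level of the 7 epithelial markers was 4219 and 4021 CPM in the libraries numbered 1 and 6487 and 6804 CPM in those numbered 2, but the list did not move one way, as the keratins KRT8, KRT18 and KRT19 were higher in number 2 and EPCAM, CDH1, CLDN4 and CLDN7 were lower, each with an adjusted p under 0.05. CLDN4, a tight junction protein, went from 55.0 and 56.6 CPM to 0.934 and 0.994 CPM. The 5 markers of IFN‐γ treatment summed to 3762 and 3794 CPM against 5222 and 5170 CPM, and all 5 were higher in number 2 with an adjusted p under 0.05. Such calls were common, as 23.0% of all tested genes were higher in number 2 and 28.7% lower by the same test. The part of these markers in the differences of the 8 genes was not tested.

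**Figure D3:**
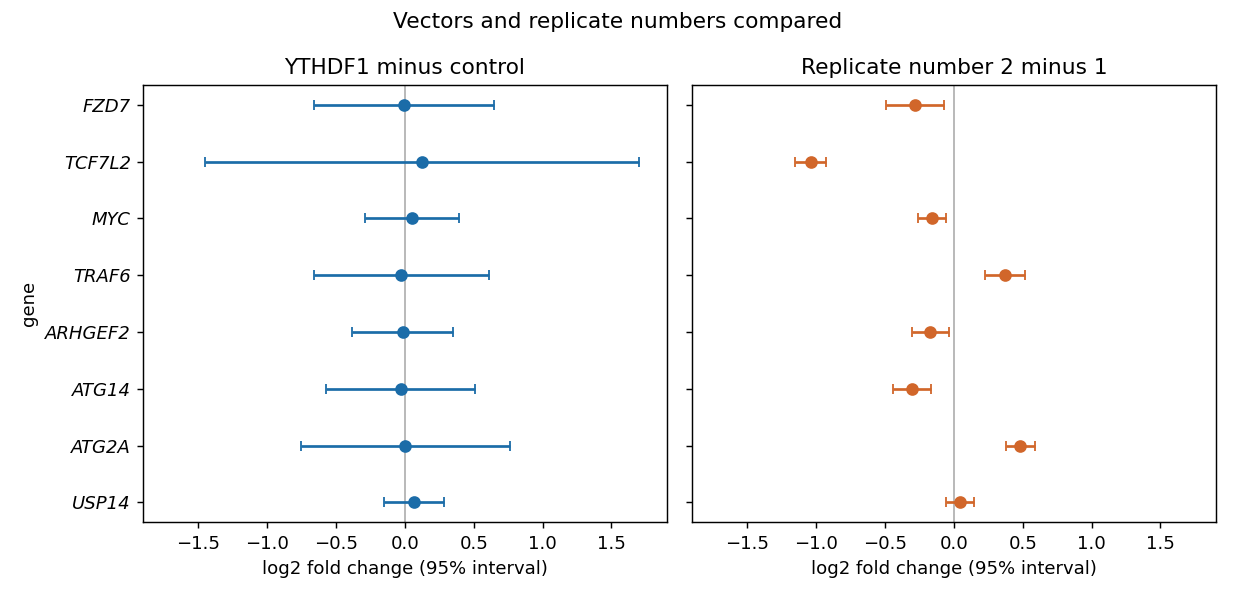
log2 fold change with its 95% interval for each of the 8 genes, on the same scale. The left panel is for YTHDF1 minus control without a term for the replicate number. The right panel is for replicate number 2 minus 1 with the vector in the model. On the left all intervals hold 0, and on the right TCF7L2 sits at −1.04, ATG2A at 0.48 and TRAF6 at 0.37 with intervals clear of 0.

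The other genes of these pathways were then read from the same fit, in 6 lists written by hand from general knowledge. In each list 0 genes were higher and 0 were lower by the threshold of the study, and 0 had an unadjusted p under 0.05 in this fit, which has no term for the replicate number, against the 0.135% of all tested genes given above. The Wnt list had 41 of 43 genes tested, a median log2 fold change of 0.017 and a range from −0.53 to 0.38. FZD1 and FZD2, the closest relatives of FZD7, had log2 fold changes of 0.065 and −0.0067, the co-receptor LRP6 had 0.035, β‐catenin (CTNNB1) had 0.026 and the feedback target AXIN2 had 0.017. Among the TCF factors besides TCF7L2, TCF7 had 0.050 and LEF1 0.083. LEF1 was higher in number 2, at 11.5 and 14.3 CPM in number 1 and 22.9 and 22.1 CPM in number 2, the opposite of TCF7L2. TCF7L1 had 303 and 337 counts in control and YTHDF1 replicate 1 and 0 in both libraries numbered 2, where a count of 0 allows up to 3 counts per library.

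All 40 genes of the autophagy list were tested, with a median of −0.0067 and a range from −0.11 to 0.14. Of the partners of ATG14 in the lipid kinase complex, BECN1 had −0.052, the kinase PIK3C3 0.030 and its regulator PIK3R4 0.083, and UVRAG, which takes the place of ATG14 in a second complex, had −0.079. ATG2B, the relative of ATG2A, had −0.082, and the ATG2 partners WIPI2 and WDR45 had −0.050 and −0.081. ATG2B, WIPI2 and WDR45 were each lower with YTHDF1 within both replicate numbers, at −0.10 and −0.055, −0.062 and −0.039, and −0.074 and −0.088, and each had an adjusted p of 1.00. Over the whole list 12 of 40 genes were lower within both numbers and 9 were higher, beside 24.5% and 25.9% of all tested genes.

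The proteasome list had 27 of 27 genes tested, with a median of 0.00032 and a range from −0.075 to 0.083. The other deubiquitinases of the proteasome, UCHL5 and PSMD14, had log2 fold changes of 0.083 and −0.054, and PSMD2, a scaffold of the regulatory particle, had −0.0047. In the list of TRAF and NF‐κB signalling 33 of 34 genes were tested, with a median of −0.0079 and a range from −0.37 to 0.078. The relatives TRAF2 and TRAF3 had 0.017 and 0.026, the ubiquitin-conjugating partner UBE2N −0.0016, the upstream kinase IRAK1 0.0085, and the downstream kinase MAP3K7 and its adaptor TAB2 −0.028 and −0.058. TRAF3 was at 53.8 and 53.2 CPM in the libraries numbered 1 and at 27.5 and 29.6 CPM in those numbered 2, opposite to TRAF6. In this list 13 of 33 genes were lower with YTHDF1 within both numbers and 6 were higher, the most uneven tally of the 6 lists. It is singled out here by that tally. Of all tested genes 24.5% were lower and 25.9% higher, shares that also stand beside the counts of the other lists. The lower and higher counts were 7 and 10 of 41 in the Wnt list, 6 and 6 of 27 in the proteasome list, 7 and 8 of 28 in the MYC network and 1 and 2 of 15 in the list of other reported targets.

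The MYC network had 28 of 29 genes tested, with a median of −0.0076 and a range from −0.35 to 0.17. MAX, the obligate partner of MYC, had −0.011, its competitor MXI1 0.054 and the relative MYCL −0.0064, while of the MYC targets ODC1 had 0.091 and NCL 0.0044. A further list of mRNAs described elsewhere as bound or controlled by YTHDF1 had 15 of 15 genes tested, with a median of −0.00096 and a range from −0.048 to 0.15. In it PARP1 had −0.00096, RELA −0.033, HK2 −0.045, EIF3C −0.048 and KEAP1 −0.0047. The medians of the 6 lists thus lay between −0.0079 and 0.017, beside 0.0046 for all tested genes.

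**Figure D4:**
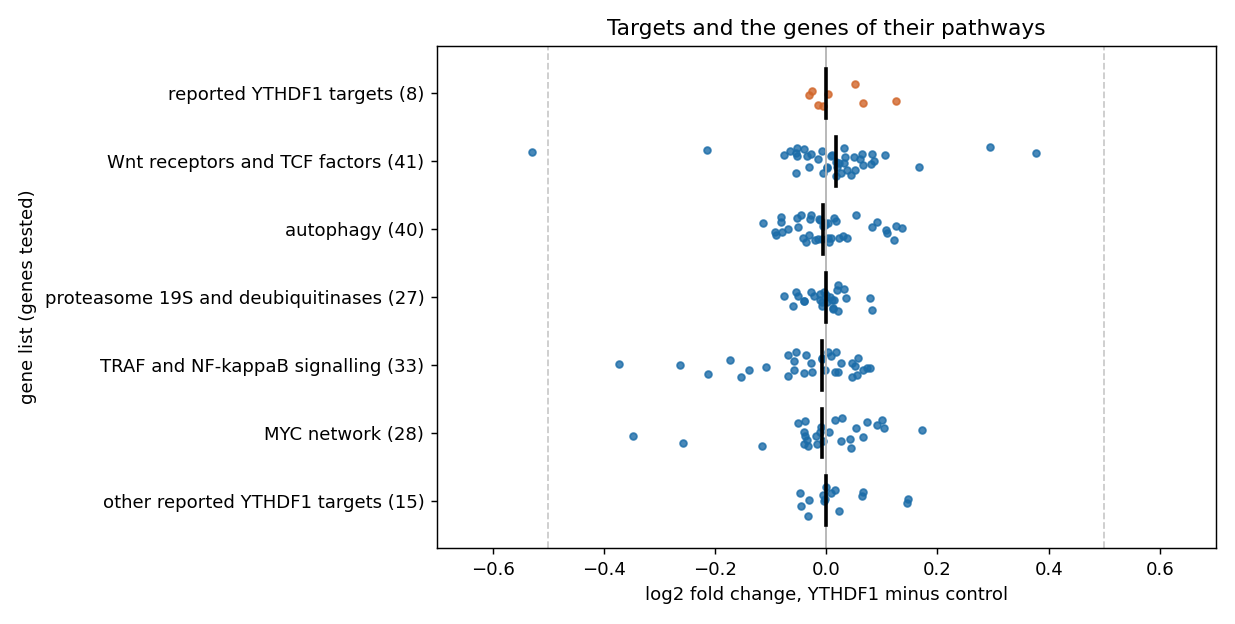
log2 fold change between YTHDF1 and control (x axis) of the 8 genes and of each tested gene in the 6 pathway lists (rows, number tested in parentheses), with black bars for medians and dashed lines at 0.5 in either direction. The bars stand near 0 in every row, and SP5 of the Wnt list, at −0.53, is the 1 point past a dashed line.

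SP5, a Wnt target singled out after its value was seen, had only 37 and 20 counts in the control replicates and 29 and 11 in the YTHDF1 replicates, and its unadjusted p was 0.510.

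Levels can be compared between genes once divided by transcript length. MYC was highest, at 100.6 to 116.2 CPM per kb over the 4 libraries. USP14 followed with 19.2 to 20.7 and TCF7L2 with 12.4 to 27.5, which overlap. ATG2A had 9.30 to 13.1 CPM per kb, a range that overlaps those of TCF7L2 above and ARHGEF2 below, the latter at 8.92 to 10.3. ATG14 and TRAF6, at 5.99 to 7.56 and 5.67 to 7.56, were not separated from each other, and FZD7 was lowest at 2.61 to 3.34. The order uses 1 transcript per gene, and isoforms of other lengths would shift it.

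As a description of pattern over only 4 libraries, the tested genes closest to each member were sought by the Euclidean distance between log2 CPM centred per gene, among genes of similar mean level. For TCF7L2 these were PRKACB and SOCS6, at distances of 0.030 and 0.067, and only 8 of 4698 genes came within 0.1. For the other members between 118 and 617 genes did. The closest to FZD7 were ZNF653 and SEMA4D, to MYC NOL11 and YES1, to TRAF6 GLIS2 and TMEM223, to ARHGEF2 SLC25A15 and ABCF3, to ATG14 INTS14 and NOMO3, to ATG2A DGKH and GSTK1, and to USP14 H2AZ2 and PLBD2. NOMO3 has near-identical copies, so its counts are uncertain.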

How the data were processed

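Total RNA was extracted with a column kit and poly(A) RNA libraries were made with a stranded kit. The authors deposited counts, whole numbers of reads per gene and library, without normalization. The submitters' processing notes name Trimmomatic, HISAT2 and GRCh38, and the counting tool is not given in the sources used here. Each library was mapped to its vector and replicate number by its title.

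The counts were fitted with edgeR 4.0.16 under R 4.3.3, which kept genes by filterByExpr, scaled libraries by TMM and compared the vectors by the quasi-likelihood test without a replicate term, with Benjamini-Hochberg adjustment over 17781 genes. This estimate leaves differences between replicate numbers in the spread. A standard error was obtained by dividing the absolute log2 fold change by the square root of F. Differences within a number are of log2 CPM with a prior count of 0.5, with exact Clopper-Pearson intervals. Alternatives were DESeq2 1.42.0 size factors and Wald test, limma-voom (limma 3.58.1), no filter, YTHDF1 left out of the library size, other scalings and prior counts, the replicate block and each library left out. The procedure was tested on simulated data.

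The 8 members and the lists were chosen with earlier results of these data known. Results for 1 further list are not reported here. By rule the text names all members, marked partner genes, listed genes past the threshold, of which there were 0, and the 2 genes of nearest pattern per member. Of the counts as a whole, 20072 genes were at 0 in all 4 libraries. Transcripts came from GENCODE release 29, taking a transcript matched to a listed RefSeq accession first, then the principal and longest one. Plots used matplotlib 3.10.9 (Python 3.11.15).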

Additional observations from a re-analysis of the deposited data

How the results depend on the processing

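For all 8 genes the vector comparison stayed without an adjusted p under 0.05 in every alternative run, where the smallest was 0.999. With 1 library left out the log2 fold change ran from −0.17 to 0.18 for FZD7, −0.51 to 0.71 for TCF7L2, −0.053 to 0.14 for MYC, −0.22 to 0.20 for TRAF6, −0.12 to 0.092 for ARHGEF2, −0.19 to 0.13 for ATG14 and −0.27 to 0.26 for ATG2A, as the replicate numbers are then unbalanced. With the replicate block, 1 member, TCF7L2, had an unadjusted p under 0.05 in edgeR. Its log2 fold change was then 0.11 with a 95% interval of 0.0014 to 0.23 and an adjusted p of 0.999, and the other 7 intervals lay between −0.21 and 0.21. An unadjusted p under 0.05 was then found for 3.79% of all tested genes, and in the pathway lists for 4 of 33 genes of TRAF and NF‐κB signalling (NFKB2, RELB, NFKBIB and TNFAIP3, all lower with YTHDF1, at −0.14 to −0.25), for DKK1 of the Wnt list (0.35) and for PVT1 of the MYC network (−0.25), with adjusted p from 0.924 to 0.999. YTHDF1 itself then had 6.34 and an adjusted p of 0.00223. The labels give the numbers no shared source. Deviations of same-numbered libraries from their vector means had a correlation of 0.875 across genes, and with 2 pairs the pairing stays a hint from the data. Over all tested genes 4 were higher and 14 lower at the threshold of the study with 0 at an adjusted p under 0.05, against 58, 134 and 8 with the block. Without the filter on low counts 32 were higher and 50 lower among 26355 genes, and with no fold asked for 7 were higher. DESeq2's Wald test gave 3 at an adjusted p under 0.05. With 1 library left out, when the lone library is assumed to vary like the pair, 4 to 49 were higher and 11 to 55 lower. The cause of these changes was not tested. Between the replicate numbers 4 to 7 of the 8 genes passed with 1 library left out, and FZD7 and ARHGEF2 did not pass with DESeq2's Wald test (adjusted p = 0.110 and 0.0528) or without the filter (adjusted p = 0.0729 and 0.0750). Differences within a replicate number ran from −0.083 to 0.15 over all scalings and prior counts tried, and each stayed inside its counting interval.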

Other observations

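Several genes of the same pathways, singled out after their values were seen, were much lower in the libraries numbered 2. Their lists went both ways. At an adjusted p under 0.05 by edgeR, 13 genes of the Wnt list were higher in number 2 and 13 lower. The autophagy list had 9 higher and 13 lower, and that of TRAF and NF‐κB signalling 10 and 12. Of all tested genes 23.0% were higher and 28.7% lower. RNF43, a ligase that removes Wnt receptors from the cell surface, had 57.8 and 55.4 CPM in control and YTHDF1 replicate 1 and 4.92 and 4.09 CPM in replicate 2. DKK1, a secreted Wnt inhibitor, had 39.3 and 51.2 CPM against 0.335 and 0.298 CPM. CD40, a receptor that signals through TRAF proteins, had 1539 and 1590 counts against 0 and 6. GABARAPL1, an autophagosome membrane protein, had 31.8 and 35.1 CPM against 6.45 and 6.53 CPM. Each of the 4 was lower in number 2 by edgeR's test of the replicate number, where DKK1 had an adjusted p of 2.87e-10. Within a replicate number the vectors differed by 0.38 on the log2 scale or less in size in RNF43, DKK1 and GABARAPL1.

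GBP1, a guanylate-binding protein induced by IFN‐γ and a marker of treatment here, had 69.4 and 67.1 CPM in the libraries numbered 1 and 215.0 and 206.2 CPM in those numbered 2, while IRF1 had 813 and 832 CPM against 1044 and 1078 CPM. Whether the level of IFN‐γ targets moved with that of the 8 genes across samples was not tested, since the 4 libraries give only 2 levels.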
